A study of Mus musculus with 4 samples.

Results

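AGO2, the Argonaute protein that holds miRNAs, was crosslinked to RNA in the brain of newborn C57BL/6 mice (P0, whole brain), and the RNA bound to it was sequenced by eCLIP. The labels give 4 samples, an AGO2 immunoprecipitate (IP) and a size-matched input each from wild-type brain and from Fmr1 knockout (FMR1 ko) brain, with 1 library of each. The anti-AGO2 antibody was EAG009 of eClipse BioInnovations, to which the frozen brains had been sent. The labels give neither the knockout allele nor the number of brains. The word Jax stands in the titles of both wild-type samples and of the knockout input, and not in that of the knockout IP. The data described here are the clusters of the IP from knockout-labelled brain, each scored by the authors against the input of the same genotype label. All 86106 clusters were taken, of 132966 in the files of both IPs. With 1 library there was no replicate, so no p-value of a difference was computed, and the intervals given (exact Clopper-Pearson, 95%) cover counting error only. Intervals of shares take abutting clusters as independent.

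Mature miRNAs are short RNAs cut from hairpins. Their seed, bases 2 to 8 counted from the 5′ end, pairs with complementary bases in target mRNAs, most often in the 3′ UTR, and Argonaute then recruits the TNRC6 proteins and the deadenylases that silence the target. An AGO2 IP therefore holds both the loaded miRNAs, which map to their own genes, and fragments of the mRNAs that they pair with. FMRP, the product of Fmr1, is an RNA-binding protein that represses translation in neurons and has been found with Argonaute.

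The authors gave each cluster a −log10 p, capped at 400, and a log2 ratio of IP to input read density. Both had to reach 3 for a cluster to count as enriched here. By this rule 2651 of the 86106 clusters were enriched (3.08%). The median cluster held 4 IP reads, and 22859 clusters (26.5%) were 3 IP reads over at most 1 input read, an input of 0 being scored as 1. At such an input 9 IP reads were needed to pass, with 5 input reads 21, and with 10 input reads 42. Among the enriched clusters 1482 (55.9%) had at most 1 input read, so their log2 rests on a very small input count. Of the 22042 clusters counted as having at least 5 input reads, 183 passed (0.83%). Reads could not be recovered for the 93 clusters at the cap, so these are left out of that set. The 10602 clusters with a −log10 p of 0 are counted in it.

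The AGO2-bound miRNAs come first because their sequences define the sites sought below. All but 1 of the 12 miRNA genes at the cap of 400 are shown with the arm that held the reads, as RefSeq gives it for GRCm38.p6 (the mm10 assembly), together with let-7c and the leading member of other seed families. The seed is in capitals.
miR-99a-5p, chr16:77598940-77598961, plus strand: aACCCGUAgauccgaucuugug
miR-125a-5p, chr17:17830817-17830840, plus strand: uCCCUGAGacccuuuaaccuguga
let-7i-5p, chr10:122985698-122985719, minus strand: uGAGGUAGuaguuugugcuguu
let-7b-5p, chr15:85707325-85707346, plus strand: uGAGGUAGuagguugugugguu
let-7c-5p, chr16:77599672-77599693, plus strand: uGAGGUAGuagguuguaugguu
miR-149-5p, chr1:92850381-92850403, plus strand: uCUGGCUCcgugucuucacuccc
miR-301a-3p, chr11:87113054-87113076, plus strand: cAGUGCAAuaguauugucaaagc
miR-135a-5p, chr10:92072141-92072163, minus strand: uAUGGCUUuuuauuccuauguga
miR-298-5p, chr2:174267553-174267575, minus strand: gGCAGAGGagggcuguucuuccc
miR-300-3p, chr12:109724363-109724384, plus strand: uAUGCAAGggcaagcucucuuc
miR-126a-3p, chr2:26591402-26591423, plus strand: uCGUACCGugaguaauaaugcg
miR-770-5p, chr12:109563710-109563731, plus strand: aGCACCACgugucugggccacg
miR-30e-5p, chr4:120772660-120772681, minus strand: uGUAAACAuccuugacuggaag
miR-15a-5p, chr14:61632075-61632096, minus strand: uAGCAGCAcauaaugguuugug
miR-128-3p, chr1:128202404-128202424, plus strand: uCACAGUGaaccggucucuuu
miR-181c-5p, chr8:84178924-84178945, minus strand: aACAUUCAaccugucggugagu
miR-17-5p, chr14:115043684-115043706, plus strand: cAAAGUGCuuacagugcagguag
miR-9-5p, chr7:79505279-79505301, plus strand: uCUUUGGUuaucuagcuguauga

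Fmr1 itself carried 5 clusters and no enriched peak. Its 5′ UTR cluster held 11 IP and 6 input reads, for a log2 of 1.81 over input. The 3 coding clusters had log2 values of -1.52, 0.16 and 0.29, and the 3′ UTR cluster held 3 IP and 2 input reads, for a log2 of 1.52. RNA of the gene was therefore present in the libraries labelled knockout, and since the labels do not name the allele, this neither checks nor contradicts the label.

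Over all clusters, those at miRNA hairpins had the highest share enriched of the kinds of region named here. Of 637 clusters at hairpins, 491 passed (77.1%, 95% interval 73.6 to 80.3), with a median log2 of 6.30 over all of them. The enriched ones had a median width of 11 bases, and several could abut on the same arm. That interval takes them as independent and is too narrow. By gene, 233 of 339 miRNA genes with a cluster had an enriched peak (68.7%). In 3′ UTRs 954 of 10587 clusters passed (9.01%, 8.47 to 9.57), or 946 of 10578 outside hairpins (8.94%). The 5′ UTR gave 4.45% of 3554 clusters, coding sequence 1.65% of 31646 and introns 1.14% of 38116. Introns and coding sequence held 44.3% and 36.8% of all clusters, but 16.4% and 19.7% of the enriched ones, while 3′ UTRs held 12.3% of clusters and 36.0% of enriched peaks. The interval of the 3′ UTR rate lay above those of 5′ UTR, coding sequence and intron. Among clusters with at least 5 input reads the order of these 4 regions was 4.30% of 930 in 3′ UTRs, 1.62% of 925 in 5′ UTRs, 0.55% of 5656 in introns and 0.41% of 13791 in coding sequence. In that set, which leaves out all clusters at the cap, 32 hairpin clusters remained, of which 1 passed (3.13%). On snoRNA and scaRNA genes 27 of 302 passed (8.94%). Since 12 miRNA genes had clusters at the cap, these shares do not rank hairpins against other regions at such input.

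**Figure D1:**
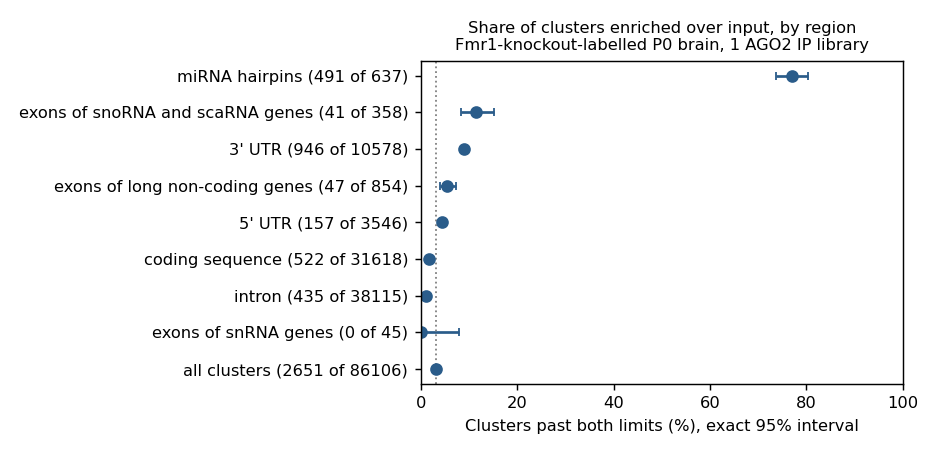
Share of clusters past both limits by kind of region (points, with exact 95% intervals as bars); the dotted line is the 3.08% of all clusters. miRNA hairpins stand at 77.1%, 3′ UTRs at 8.94% and introns at 1.14%, and the 45 clusters at snRNA genes hold none.

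Enriched peaks lay on 233 of the 339 miRNA genes that had a cluster. The median of their best log2 was 6.72, the lowest was 3.17, and 63 genes reached 8 or more. Mir99a had the highest value, a log2 of 11.30 over input, followed by Mir125a at 10.92, Mirlet7i at 10.56, Mir149 at 10.55, Mir301 at 10.45, Mir135a-2 at 10.45 and Mirlet7b at 10.43, all at the cap of 400. Mir298 (9.84), Mir300 (9.77), Mir126a (9.59), Mir135b (9.46) and Mir770 (5.54) completed the 12 genes there. Below the cap, Mir342 held 664 IP reads over at most 1 input read, for a log2 of 10.32 (counting interval 7.83 to 15.62). The widths of such intervals come from the input, which was close to empty at most hairpins.

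The reads outlined the mature arm. Of the 491 enriched hairpin clusters, 420 lay on an arm that RefSeq lists, which gave 233 arms of 200 genes. On 204 of these arms (87.6%) the covered span began within 2 bases of the annotated 5′ end, and on 181 (77.7%) it ended within 2 bases of the 3′ end. The median span was 23 bases. For miR-99a-5p (chr16:77598940-77598961, plus strand) the 3 abutting clusters ran from 77598939 to 77598960, and for miR-126a-3p (chr2:26591402-26591423) the covered span matched the arm base for base. Of 187 genes with both arms in RefSeq, 88 had peaks on the 5p arm alone, 66 on the 3p arm alone and 33 on both.

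Grouped by seed, the 233 arms fell into 177 seeds, of which 29 were shared by 2 or more genes. The let-7 seed GAGGUAG had the most genes on an arm, 8, with a highest log2 of 10.56. It is the family of late neuronal differentiation and of growth restraint. With Mirlet7a-2, 9 of the 10 let-7 genes with a cluster were enriched. Mirlet7i and Mirlet7b stood at the cap, Mirlet7c-1 held 555 IP reads (10.06), and Mir98 passed narrowly at 9 IP reads (4.11). Mirlet7f-2 did not pass (2.52). All 7 genes of the miR-15/16 family with a cluster passed, led by Mir15a at 9.62, as did all 6 of miR-181 (Mir181c, 9.34), all 6 of miR-30 (Mir30e, 9.69) and all 4 of miR-125. The miR-99/100 seed ACCCGUA was carried by 3 enriched genes at 11.30, 8.55 and 8.20.

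The miRNAs best known from neurons were not at the cap. The 3 genes of miR-124, the classical neuronal miRNA, had log2 values of 7.70, 8.10 and 7.26. Mir9-3 and Mir9-2, of the neural progenitor and neuronal miRNA miR-9, reached 6.15 and 5.03, and Mir9-1 did not pass at 6 IP reads (3.52). Mir128-1 stood at 9.60 and Mir137 at 9.13, both miRNAs of neurons, while Mir138-1 stood at 7.37 and Mir7-2 at 5.94. miRNAs known from other cell types were also present, with Mir451a of red cells at 9.80 and Mir126a of endothelium at the cap. Over 35 seed families, 92 of 102 genes with a cluster were enriched, and miR-24 was the one family with no cluster at all. Where a mature sequence stands at several genes, reads cannot be told apart between them. Values per gene therefore do not rank such miRNAs against those of a single gene. This held for 29 of the 233 arms, let-7c, miR-16, miR-125b, miR-128 and miR-9 included. The arms of the miR-124 genes are missing from the RefSeq set used, so that count does not cover them.

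**Figure D2:**
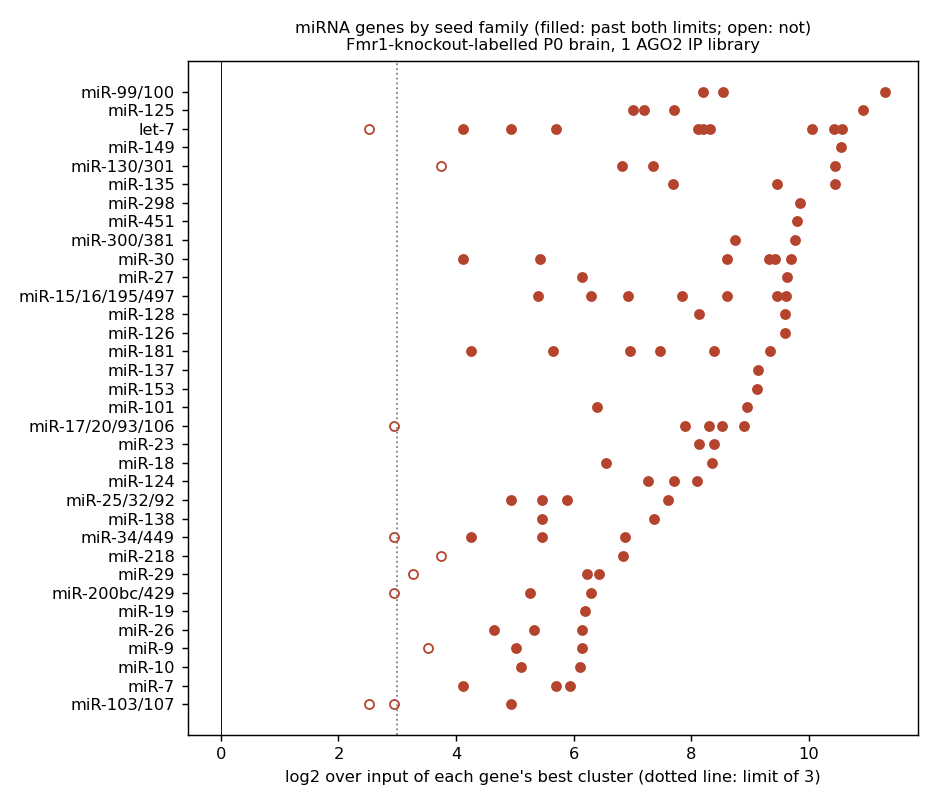
log2 over input of the best cluster of each miRNA gene (points) by seed family, ordered by the highest member; filled points passed both limits, open ones did not. Mir99a is highest at 11.30, and the family of Mir107 is lowest, with its best gene at 4.94.

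Outside miRNAs, 1130 of 8323 protein-coding genes with an exonic cluster carried an enriched exonic peak (13.6%), and 1625 of their 45742 exonic clusters passed (3.55%). The peaks lay in the 3′ UTR of 689 genes, the coding sequence of 433 and the 5′ UTR of 126, and 79 genes had peaks in both coding sequence and 3′ UTR. Most genes had 1 peak (851), 175 had 2, 57 had 3 and 47 had 4 or more. The share of genes that passed rose with the number of their clusters, from 3.07% of the 1890 genes with 1 cluster to 52.2% of the 335 genes with 20 or more. Lists of genes are therefore given below by their share of clusters.

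Igf2, the fetal growth factor, had the most enriched peaks: 27 of its 29 exonic clusters, 16 in the 5′ UTR, 10 in the 3′ UTR and 1 in coding sequence. Its highest cluster, in the 5′ UTR (chr7:142659360-142659373, minus strand), stood at the cap with a log2 of 7.61, in a run of 11 abutting enriched clusters over 217 bases. Mir483, the miRNA inside the gene, lay 4180 bases away. In the 3′ UTR the cluster with its highest −log10 p held 187 IP and 14 input reads (log2 4.68). Another 5 of the 3′ UTR peaks, which abut (log2 5.21 to 8.16), had the same single let-7 match in their windows. Pgm2l1, which makes glucose 1,6-bisphosphate, and Ankrd52, a subunit of the phosphatase that acts on Argonaute, had 10 peaks each, of 19 and 24 clusters. Pcdh1 (a protocadherin) and Tnrc6a (the Argonaute partner GW182) had 8 each, the syndecan Sdc3 7, and Kdm6b, Pou2f1, Dynll2 and Kmt2d 6 each. Counted as sites, with abutting peaks merged, Igf2 did not lead. It had 7 sites, against 9 each in Pgm2l1 and Ankrd52 and 8 in Tnrc6a. Pcdh1 had 7 sites, Kmt2d 6, Sdc3 and Kdm6b 5 each, Pou2f1 4 and Dynll2 3.

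Peaks were ranked by −log10 p within each region. The first in 3′ UTRs was that of Myadm, a membrane protein, at the cap with a log2 of 6.44. Ids, the lysosomal iduronate sulfatase, held 247 IP over 2 input reads (7.89), Tsc22d4 228 over 2 (7.77), and Nfix, a transcription factor of neural stem cells, 187 over 3 (6.90). Kcnk10, a potassium channel, held 175 IP reads over at most 1 input read (8.39). Emc10 (112 over at most 1), Sbf1 (101 over 2) and Alg2 (112 over 5) followed, with log2 values of 7.75, 6.60 and 5.42. Csf2ra, at 165 over 35 reads, passed with a log2 of 3.18. Several of these peaks held no match to any seed family searched, and miR-124 could not be searched because its seed sequence is missing here. Those of Myadm, Kcnk10, Emc10 and Csf2ra and the highest of Nfix had none. The windows of both Ids peaks, which abut, held a miR-7 match, Sbf1 a miR-30 match and Alg2 a miR-298 match.

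In coding sequence the H3K27 demethylase gene Kdm6b led at the cap (log2 4.96), with 5 further peaks in the gene. Zfhx3, a homeodomain factor, held 233 IP over 4 input reads (6.80), Kmt2b, a histone methyltransferase, 134 over 3 (6.42), and Prr36 103 over 2 (6.63). Pcdh1 held 241 over 20 reads (4.53), Pclo, the presynaptic scaffold Piccolo, 231 over 49 (3.18), and Tnrc6a 168 over 10 (5.01). The ribosomal protein gene Rpl14 (5.15), the RNA granule gene Lsm14b (4.51) and Hmgcs1 of sterol synthesis (4.44) completed the 10. Of these 10 leading peaks, those of Zfhx3, Kmt2b, Prr36 and Hmgcs1 held a let-7 match, and that of Rpl14 a miR-15/16 match. Those of Kdm6b, Pcdh1, Pclo, Tnrc6a and Lsm14b matched none of the 9 brain families searched below. All 3 coding peaks of Zfhx3 had let-7 matches, at 3 different positions, and both of Kmt2b, which abut, at 2.

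In the 5′ UTR, Igf2 and 2410002F23Rik stood at the cap. The site in 2410002F23Rik (65 bases) lay on Snord88a, a snoRNA that RefSeq places on the same strand, so its reads cannot be given to the mRNA. Pclo held 123 IP over 15 input reads (3.98), in a site of 380 bases that ran on into its coding sequence. Gpat4 (6.28), Stmn2, the neuronal microtubule regulator (3.60), Gnas (3.55), Agap2 (3.57), the growth cone protein gene Basp1 (3.48), Eef1b2 (3.29) and Snn (4.40) followed. Windows of enriched 5′ UTR peaks had a median GC content of 74.3%, against 70.3% for the other 5′ UTR clusters, and in coding sequence the medians were 58.9% and 54.5%.

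Seed matches were sought in the 101 bases around each cluster midpoint on the genome. A peak is said to hold a match where this window does, so the match can lie outside the peak. A match was 7 bases, either complementary to bases 2 to 8 of a miRNA or to bases 2 to 7 followed by A. Of the 10 brain families chosen, 9 have a seed sequence here (let-7, miR-9, miR-125, miR-17, miR-30, miR-128, miR-26, miR-15/16 and miR-181; miR-124 is the family without). Of 946 enriched 3′ UTR peaks, 391 held a match to at least 1 of the 9 (41.3%, 38.2 to 44.6), against 2337 of 9632 other 3′ UTR clusters (24.3%, 23.4 to 25.1). In coding sequence the shares were 217 of 522 enriched peaks (41.6%, 37.3 to 45.9) and 15.9% of 31096 other clusters. Among 3′ UTR clusters with at least 10 IP reads, 346 of 817 enriched peaks (42.4%) and 85 of 438 others (19.4%) held a match. Median GC content was 50.5% in enriched and 48.5% in other 3′ UTR windows.

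let-7 had the largest excess of the 35 seed sets in both regions. Its match stood in 105 of 946 enriched 3′ UTR peaks (11.1%) against 3.54% of other clusters, and in 81 of 522 enriched coding peaks (15.5%, 12.5 to 18.9) against 2.58%. Abutting peaks can share a match: the 105 peaks held 104 different match positions and the 81 held 86. In 3′ UTRs the interval of the enriched share lay above that of the other clusters for 8 sets: let-7, miR-9 (6.34% against 3.40%), miR-125 (5.39% against 3.08%), miR-17 (5.07% against 2.79%), miR-19 (4.65% against 2.46%), miR-25 (2.64% against 1.33%), miR-30 (5.50% against 2.75%) and miR-130 (4.02% against 2.18%). In coding sequence it did so for 6: let-7, miR-9 (8.05% against 3.27%), miR-125 (7.66% against 2.04%), miR-15/16 (7.47% against 3.45%), miR-19 (2.68% against 0.769%) and miR-130 (1.72% against 0.656%). No interval of an enriched share lay below that of the other clusters in either region. For miR-128, 3.59% of enriched and 3.41% of other 3′ UTR clusters held a match, although Mir128-1 itself had a log2 of 9.60. Likewise miR-149, at the cap on its own gene, matched 1.37% against 2.44%, and miR-298 4.12% against 3.91%.

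**Figure D3:**
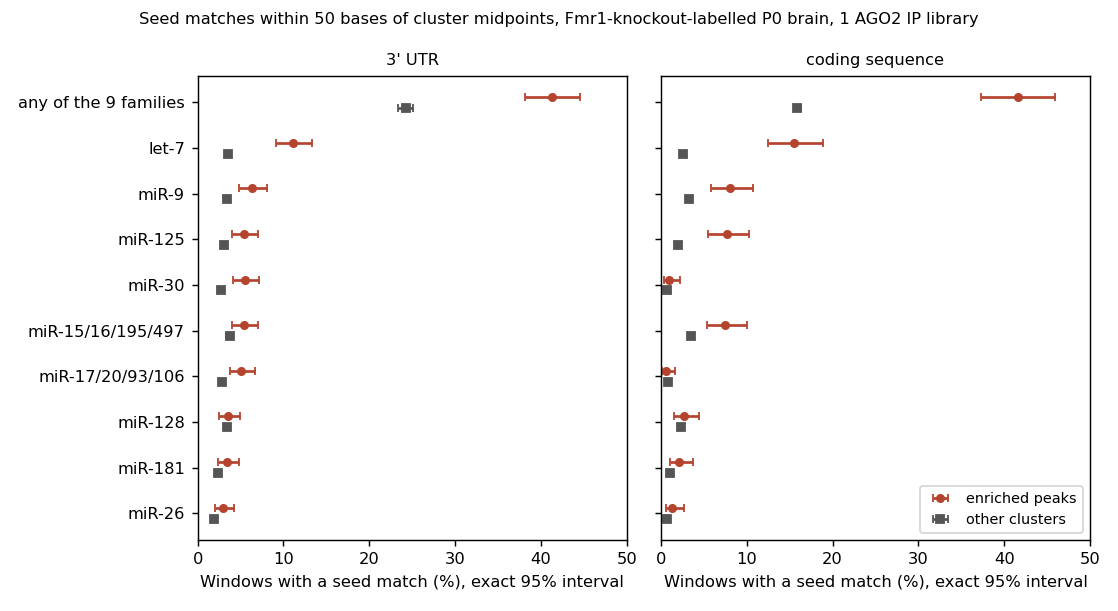
Share of windows of 101 bases with a seed match, in enriched peaks (circles) and other clusters (squares), with exact 95% intervals, in 3′ UTRs and coding sequence. let-7 stands at 11.1% and 15.5% of enriched peaks in the left and right panels, against 3.54% and 2.58% of other clusters.

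Shares followed the score. The 9 families matched 5.97% of the 201 3′ UTR clusters with a log2 below 0, 18.3% of those from 0 to 2, 25.2% from 2 to 3, 33.1% from 3 to 4, 42.2% from 4 to 5 and 46.6% of the 148 from 5 to 6. Above 6 the share was 42.5% of 40 clusters, with an interval of 27.0 to 59.1 that covers its neighbour. let-7 alone went from 0.498% of clusters below 0 to 16.9% from 5 to 6. The matches also lay near the midpoint. Within 10 bases of it, enriched peaks had 13.5 matches per 1000 windows per base, against 3.86 and 4.48 in the outer stretches 31 to 47 bases upstream and downstream. The other 3′ UTR clusters had 6.42 at the centre and 2.51 and 2.36 outside.

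**Figure D4:**
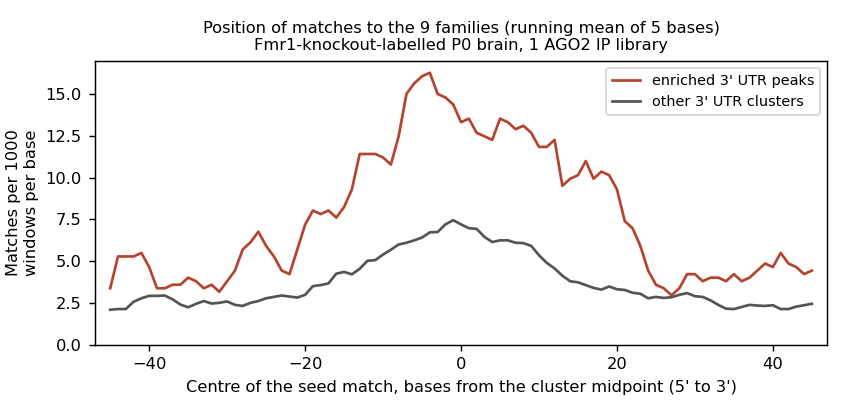
Matches to the 9 families per 1000 windows per base, by distance from the midpoint of the 3′ UTR cluster (running mean of 5 bases). Both curves are highest near the midpoint, and the enriched peaks lie higher, with 13.5 against 6.42 over the central 21 bases.

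Sites from the windows of the peaks with the highest −log10 p are shown for families with an excess, 5′ to 3′ on the mRNA strand in mm10. The 7 bases complementary to miRNA bases 2 to 8 are in capitals. Those of Pias4 and Klf13 lie in the window but outside the peak itself. The first 10 lie in 3′ UTRs and the last 3 in coding sequence, where examples were chosen after the let-7 share had been seen.
Igdcc4 and let-7, chr9:65136322-65136347, plus strand: tcctaacaacatgaCTACCTCatgtc
Runx1t1 and let-7, chr4:13892734-13892759, plus strand: caaaaagtttcactCTACCTCtgaca
Pias4 and let-7, chr10:81153646-81153670, minus strand: gttttctagccagCTACCTCggtaa
Pou2f1 and miR-9, chr1:165866342-165866367, minus strand: agcctgatgcagatACCAAAGacaat
Ankrd52 and miR-9, chr10:128393978-128394003, plus strand: gccttcaatatgtaACCAAAGgaaaa
Zfp385a and miR-125, chr15:103314791-103314816, minus strand: ggaacaccccagatCTCAGGGaaccc
Tbc1d9 and miR-17, chr8:83272624-83272649, plus strand: aagctggcatgtctGCACTTTgaatc
Sema4c and miR-19, chr1:36549470-36549495, minus strand: gtgcactcttaactTTTGCACaggca
Pgm2l1 and miR-30, chr7:100273208-100273233, plus strand: gtatttaagacggaTGTTTACtgaac
Klf13 and miR-130, chr7:63891179-63891203, minus strand: ctttgtacatagatTTGCACTctgg
Zfhx3 and let-7, chr8:108956730-108956755, plus strand: tcctagcaccgcatCTACCTCgcagt
Kmt2b and let-7, chr7:30575424-30575449, minus strand: cacagccctcacacCTACCTCagggg
Prr36 and let-7, chr8:4214005-4214030, minus strand: tccagtttcttcgtCTACCTCcatct

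The cluster behind the Igdcc4 site held 50 IP reads over at most 1 input read (log2 6.58), and those behind Pias4 and Runx1t1 held 54 over at most 1 (6.69) and 58 over 4 (4.80). Igdcc4 is a cell-surface protein of the immunoglobulin superfamily, Pias4 a SUMO ligase and Runx1t1 a transcriptional co-repressor. Pou2f1, the octamer-binding factor, held 58 IP over 5 input reads at its miR-9 site (4.48), and each of its 6 peaks matched at least 1 of the 9 families, the 2 coding peaks through the same let-7 match. The miR-30 site of Pgm2l1 had 77 over 4 reads (5.21). In Sema4c, a semaphorin, the window of 1 peak of 46 over 2 reads (5.46) held matches to miR-125, miR-19, miR-138 and miR-34. The miR-34 match lay outside the peak itself. In Kmt2b the let-7 and miR-125 matches overlapped, and its peak held 134 over 3 reads (6.42). A match is a description of the letters in the window and does not show which miRNA was bound there.

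Along mRNAs, enriched 3′ UTR peaks were spread much like the other 3′ UTR clusters. With the 3′ UTR cut into 5 equal stretches, the first held 28.2% of 943 enriched peaks and 27.7% of 9596 others. The last held 13.6% (11.5 to 15.9) and 16.3% (15.6 to 17.1), and the median distance from the stop codon was 803 and 903 bases. In coding sequence the first stretch of 5 held 27.0% of 522 enriched peaks (23.3 to 31.0) against 21.4% of the others, and the last 22.4% (18.9 to 26.2) against 19.3%.

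Of 17 lists of genes by function, 11 had a higher share of enriched exonic clusters than the 3.55% of all protein-coding genes, and 8 still did without their gene with most peaks. These shares were given no interval, so a small excess does not set a list apart. Nor were lists compared within a kind of region, although 8.94% of 3′ UTR and 1.65% of coding clusters passed outside hairpins. Imprinted genes (16.2% of 204 clusters) and growth factor signalling genes (9.87% of 476) rested on Igf2, without which they stood at 3.43% and 4.47%. Transcription factors of neural development had 62 enriched of 867 clusters (7.15%, and 6.63% without Pou2f1), in 30 of 96 genes (31.3%, against 13.6% of all genes). Among the enriched genes were Zfhx3, Nfix and Bcl11b, the factor of subcortical projection neurons (70 IP reads over at most 1 input read, log2 7.07). In the list of the silencing complex and miRNA biogenesis, 25 of 353 clusters passed (7.08%, and 5.36% without Tnrc6a), all in 7 of 34 genes (20.6%). Genes of this list and of the transcription factor list had a median of 7 clusters, against 3 over all genes. Their shares of genes therefore cannot be set against the 13.6%. Leaders of the silencing list were the 3 TNRC6 genes, with 8 peaks in Tnrc6a, 5 in Tnrc6b (highest 65 over at most 1 input read, 6.96) and 5 in Tnrc6c (77 over 7, 4.40). The RNA helicase gene Ddx6 followed (46 over 2, 5.46).

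Signalling by Notch, Wnt, TGF-beta and Hedgehog stood at 6.00% of 350 clusters (4.97% without Acvr1b), with Dvl2, the Wnt adaptor, at 6.22, Apc2 at 5.89 and 4 peaks in the activin receptor gene Acvr1b. Cadherins and protocadherins stood at 5.52% of 362, or 3.47% without Pcdh1. The cell cycle list had 8 peaks in 152 clusters (5.26%, and 4.23% without Cdk5r1), Btg2 and E2f6 each with 29 IP reads over at most 1 input read (5.80). RNA-binding proteins of neurons and development stood at 4.59% of 545 (4.17% without Nova2), with Nova2 (4.35) and Ptbp1 (5.85) as examples. Axon guidance genes stood at 4.10% of 781 (3.62% without Sema7a), where Sema7a had 4 peaks (highest log2 5.28) and the receptor genes Nrp2 and Plxnb2 reached 3.48 and 5.80. Glutamate and GABA receptors had 10 of 223 clusters enriched (4.48%), 3 of them in Grin2b, without which the share was 3.43% and below that of all genes.

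The other lists lay near or below the 3.55% of all genes. Presynaptic genes stood at 3.84% of 807 clusters (3.67% without Pclo), with Cplx2 at 6.15 in the 3′ UTR, and chromatin regulators at 3.54% of 1555. Postsynaptic genes stood at 2.78% of 648, 4 of their 18 peaks in the scaffold gene Shank1. The cytoskeleton list had the most clusters, 2062, of which 54 passed (2.62%), and 4 of the 59 clusters of Map1b were enriched. Translation factors (3.14% of 318, 5 of the 10 peaks in Gigyf1), ubiquitin ligases and proteases (3.10% of 838) and voltage-gated and potassium channels (1.87% of 481) completed them. The median log2 of the cytoskeleton list was 0.94, and that of all exonic clusters was 1.52.

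**Figure D5:**
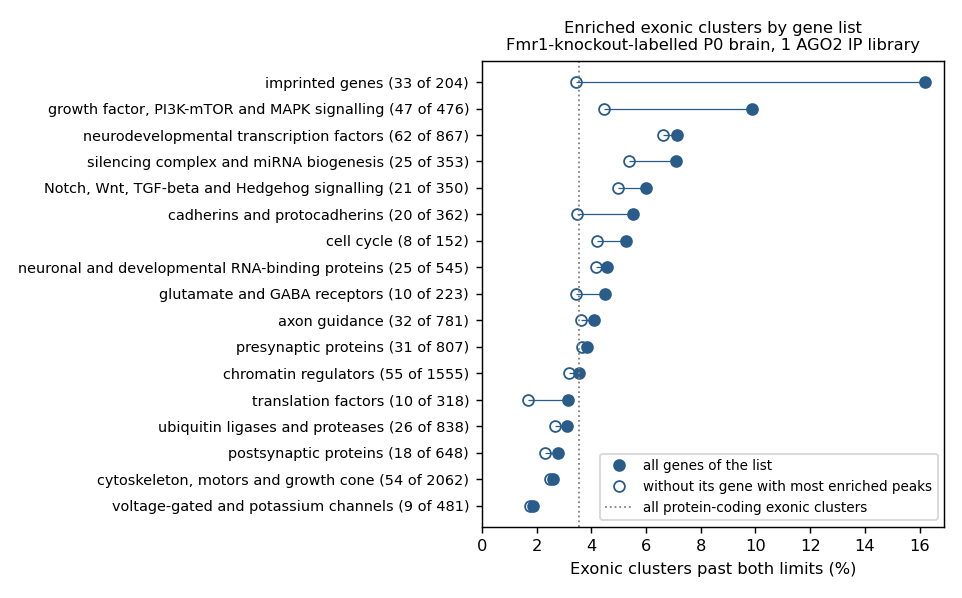
Share of exonic clusters past both limits for 17 gene lists (filled), and without the gene of the list with most enriched peaks (open); the dotted line is the 3.55% of all protein-coding exonic clusters. Imprinted genes fall from 16.2% to 3.43% without Igf2, and transcription factors from 7.15% to 6.63%.

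Neuron markers were present, as the label of the tissue states. All 7 neuron markers had clusters, 118 in all and a median of 13 per gene, of which 7 were enriched (5.93%, against 3.55% of all exonic clusters). They lay in 6 genes, among them Stmn2 (3.60), Dcx (3.79), Tubb3 (3.03) and Map2 (3.85). The 7 neural progenitor markers had 34 clusters, the 6 astrocyte markers 22 and 6 endothelial and mural markers 14, with 0 enriched in each. Against the 3.55% of all exonic clusters, these are too few clusters to set those markers apart from other genes. The same holds for the 7 enriched of 118 clusters of the neuron markers. Vim, of progenitors, had 13 over 4 reads (log2 2.64). Of the other lists, the oligodendrocyte lineage had 16 clusters in 6 genes, of which 1 passed, in Olig1 at 9 IP reads (4.11). Red cell markers had 3 clusters in 3 genes, of which 1 passed, in Hbb-bs (24 reads over at most 1, 5.52). Of 6 choroid plexus markers only Ttr had clusters, 7 in all, and 2 of them passed (highest 68 over 9, 3.86). Of 6 microglia markers only Csf1r had a cluster, and it was not enriched. In a bulk sample fewer cells of a type and less RNA per cell cannot be told apart.

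Among non-coding genes, 41 of 358 clusters on snoRNA and scaRNA genes passed (11.5%, 8.35 to 15.2) and 0 of 45 on snRNA genes, which allows a share of up to 7.87%. Snord88c (4.86), Scarna2 (4.53) and Snord13 (3.49) stood at the cap, and Snord14d and Snord14c held 222 over 29 and 246 over 47 reads (3.88 and 3.33). Their input was high: 302 of the 358 clusters counted as having at least 5 input reads, those at the cap left out, and 35.2% had a log2 below 0. On exons of long non-coding genes 47 of 854 clusters passed (5.50%). H19, the imprinted host of Mir675, had 9 enriched clusters, the highest with 175 reads over at most 1 input read (8.39) and 1110 bases from the hairpin. Gm26917 stood at the cap (4.84) and had 8 enriched clusters, 1700020I14Rik had 14 (highest 4.26) and the imprinted RNA Peg13 had 4 (5.06). RefSeq lists no gene on the same strand at the leading sites of Gm26917 and 1700020I14Rik, so these names rest on GENCODE alone. Whether the reads there come from another kind of RNA was not tested. The sites in Gas5 and Rab26os lay on snoRNA genes of RefSeq, and that in Gm17494 on a tRNA gene.

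Of 435 enriched intronic clusters, Capn9 (log2 8.0), Mast1 (7.17) and Unc5c (4.95) stood at the cap, and Grm5, the metabotropic glutamate receptor gene, held 428 IP reads over at most 1 input read (9.68). Ilkap (177 over 15 reads, 4.50), Spock3 (143 over 6, 5.51) and the neurexin gene Nrxn3 (121 over 8, 4.86) were also enriched. The 435 clusters merged into 369 sites, of which 39 were at most 30 bases wide and 330 wider. A log2 of 6 or more was reached by 6 narrow sites and 8 wider ones. The 6 narrow sites have the width of a miRNA arm but lie outside annotated hairpins, the nearest 107545 bases off. They are shown in mm10, plus strand, with the longest run of bases shared with any RefSeq mature miRNA in capitals.
Grm5, chr7:87979697-87979726: ttTCCCTGAGACCCTAACatatgaaaaaga
Gria3, chrX:41546667-41546689: tctGCTGACCCCTAGTCtagtgt
9530036O11Rik, chr5:28672439-28672463: tTATGCAAGGGCAAGCagttttttt
Cdc42bpa, chr1:180040422-180040443: TAGCAGCACGTAAAagctggac
Capn9, chr8:124598215-124598233: tccctctacGCACAGACta
Gnaz, chr10:74993518-74993539: ttaaggcaagcgGTGACTACtg

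In 4 of the 6 the shared run was 14 bases or more and began at base 1 of a miRNA that was itself enriched at its own gene. The Grm5 site shared the first 16 bases of miR-125b-5p, the site in the glutamate receptor gene Gria3 (118 reads, log2 7.82) the first 14 of miR-345-5p, that in 9530036O11Rik the first 15 of miR-300-3p and that in Cdc42bpa the first 14 of miR-16-5p. Their own genes stood at log2 values of 7.71 (Mir125b-1), 8.11 (Mir345), 9.77 (Mir300) and 9.45 (Mir16-1). The sites in Capn9 and Gnaz shared 8 bases with their best match, inside the miRNA. Whether reads of those miRNAs contributed to the 4 intronic sites was not tested.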

How the data were processed

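AGO2 eCLIP of 1 knockout-labelled P0 brain IP was analysed from the cluster file; the table that sets the IPs against each other was not used here. Per the labels' protocols, the authors trimmed reads with Cutadapt 1.15, removed reads on mouse repeats, mapped the rest to mm10 with STAR 2.6.0c, removed PCR duplicates, called clusters with CLIPper 1.4 and compared them with the size-matched input. The deposited −log10 p (capped at 400) and the deposited log2 of read density in IP over input are the authors' values for each cluster.

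Reads were recovered from the scores: 99.97% of log2 values lay on a depth ratio of 1.92 (input over IP) times a ratio of whole numbers, and the −log10 p was met within 1% for all 75411 clusters between 0 and 400. The recovery and the match search were tested on simulated data. Clusters took the GENCODE annotation (M21) at their midpoint on the same strand, coding sequence taking precedence over 3′ UTR, then 5′ UTR, non-coding exons and introns; 59215 of 59255 start codons read ATG. Genes named were Fmr1, the miRNA genes at the cap and the best of each family, the 10 genes with the highest −log10 p per region, the 10 with most peaks, up to 4 per list and 3 sites per family; others named were chosen after their values were seen. Members and lists were chosen with earlier results of these data known. Python 3.11.15, scipy 1.17.1, pandas 2.3.3 and bedtools 2.31.1 were used. Alternatives covered the limits, the input, merging, annotation order and the definition of a match. A few genes that the rule names are not reported here.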

Additional observations from a re-analysis of the deposited data

How the results depend on the processing

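Stricter limits (−log10 p of 5, log2 of 4) left 1190 enriched peaks, 32.7% of them in 3′ UTRs, 3.67% of 3′ UTR clusters, 389 protein-coding genes and a seed share of 45.1%. Looser limits (log2 of 2) moved the 3′ UTR share to 31.1% and the 3′ UTR rate to 10.2%. With at least 5 input reads 183 peaks remained past the limits, 21.9% of them in 3′ UTRs, 4.30% of 3′ UTR clusters, 88 genes, 1 miRNA gene and a seed share of 25% (10 of 40), beside 13.5% of other clusters. These counts leave out all clusters at the cap, among them those of 12 miRNA genes, because their reads could not be recovered. Merging abutting clusters put 39.9% of 2220 peaks in 3′ UTRs. The seed share was 29.8% within 25 bases of the midpoint and 18.3% for matches to bases 2 to 8 followed by A, beside 16.3% and 6.68% of other clusters. The other 14 values, those without Igf2 (chosen after seeing the data) included, stayed within the interval, or within 1.5 times the count. No paired analysis was possible because each group has 1 library. At the median of 4 IP reads most clusters could not pass, so a cluster that did not pass is not shown to lack AGO2.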

Other observations

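Over all chromosomes 491 of 2651 enriched peaks (18.5%) lay at hairpins, and 233 of the 339 miRNA genes with a cluster were enriched (68.7%). Chromosome 12, which holds the imprinted Dlk1-Dio3 domain, had 49 of the miRNA genes with a cluster, of which 42 were enriched (85.7%), and 101 of its 170 enriched peaks (59.4%) lay at hairpins. Members of that domain with high values were Mir300 and Mir770 at the cap, Mir434 (log2 9.68), Mir495 (411 IP reads over at most 1 input read, 9.62), Mir127 (416 over 2, 8.64), Mir136 (338, 9.34) and Mir154 (257, 8.95). The X chromosome had 32 miRNA genes with a cluster, 20 of them enriched (62.5%), and 44.7% of its 85 enriched peaks at hairpins, Mir672 being the highest-scored example named here (218 over 2 reads, 7.71). On chromosome 7, with 20 miRNA genes and 12 enriched (60.0%), 21 of 241 enriched peaks (8.71%) lay at hairpins. The share of miRNA genes enriched was not highest on chromosome 12. Chromosome 14 had 11 of 12 (91.7%), and chromosomes 1 and 4 stood at 80.95% and 81.25%.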
